A study of Homo sapiens with 4 samples.

Results

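Peaks of YBX1 RNA immunoprecipitation that lie within 2000 bp after the transcription start of a protein-coding gene are described here. The members were the peaks that the submitters' annotation placed in its promoter class and whose middle lay at or after the nearest start of a coding RefSeq transcript, that is, of an accession of the NM type. There were 4818 such peaks among 53161 deposited peaks, 2563 of 27669 (9.26%) in the replicate 1 list and 2255 of 25492 (8.85%) in the replicate 2 list. They are called after-start peaks below.

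The samples were 2 YBX1 immunoprecipitates (IP) and 2 input libraries made without antibody. All 4 came from PANC-1, an established line of human pancreatic cancer cells, and all cells had been treated beforehand with extracellular vesicles of CAFs, which in this field stands for cancer-associated fibroblasts. Each deposited list set 1 IP against the input of the same replicate number. No cells without vesicles and no control antibody were analysed here, so the values compare YBX1-bound with total RNA in vesicle-treated cells of a single line. The labels do not say whether replicates came from separate cultures, so differences between the lists may be technical.

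YBX1 carries a cold-shock domain, packages messenger RNA into ribonucleoprotein particles and is known to influence its translation and lifetime. It was also described as a factor that binds the Y-box, an inverted CCAAT element of gene promoters, and both strands of that element are marked in the sequences shown here. The word promoter in the class name refers to a position on the genome within 2000 bp of a start. Per the labels' protocols the lysate was treated with DNase and RNA was recovered from the beads, while the library kit named is one for DNA and no reverse transcription step is stated. Where the transcript is longer than the distance from its start to the peak's middle, that middle lies on bases that the gene's own primary transcript holds, in a leader exon, in an early intron or, for a small gene, in the body of the transcript. For a shorter transcript the middle lies past its end, as in SMIM22, whose peaks centred 1891 and 1892 bp after the start of a transcript spanning 1115 bp. The lists do not give exon borders, so these cases were separated only by position and by the span of the transcript.

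The start regions of 8 genes are shown because 4 of them (XYLT2, ITPR3, MRPS15 and RPS6KB2) ranked highest by the smaller of their 2 folds among genes with 20 reads or more in both lists, and the other 4 (ACTG1, TMSB10, UBB and RPL29) ranked highest by the smaller of their 2 read counts, with FTH1 left out. Each line gives 150 bases before the start and 20 bases after it, 5′ to 3′ on the gene's strand, from RefSeq windows of GRCh38.p14. Capitals mark CCAAT or its reverse complement ATTGG. UBB has 2 windows and the more upstream is shown.
XYLT2, chr17:50345976-50346145, plus strand: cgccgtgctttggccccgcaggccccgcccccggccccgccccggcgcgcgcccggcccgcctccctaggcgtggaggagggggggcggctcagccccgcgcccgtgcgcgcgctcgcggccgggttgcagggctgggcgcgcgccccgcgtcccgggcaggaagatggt
ITPR3, chr6:33621172-33621341, plus strand: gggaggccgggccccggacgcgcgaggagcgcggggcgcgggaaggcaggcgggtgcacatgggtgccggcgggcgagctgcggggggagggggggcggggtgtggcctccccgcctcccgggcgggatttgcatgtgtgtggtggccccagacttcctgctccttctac
MRPS15, chr1:36464365-36464534, minus strand: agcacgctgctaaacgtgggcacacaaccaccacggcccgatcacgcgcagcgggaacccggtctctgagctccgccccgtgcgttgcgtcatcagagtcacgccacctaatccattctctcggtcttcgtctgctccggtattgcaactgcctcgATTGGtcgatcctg
RPS6KB2, chr11:67428344-67428513, plus strand: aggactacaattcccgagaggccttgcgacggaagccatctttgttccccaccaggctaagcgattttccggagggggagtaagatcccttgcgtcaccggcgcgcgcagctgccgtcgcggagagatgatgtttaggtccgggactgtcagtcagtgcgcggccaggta
ACTG1, chr17:81512780-81512949, minus strand: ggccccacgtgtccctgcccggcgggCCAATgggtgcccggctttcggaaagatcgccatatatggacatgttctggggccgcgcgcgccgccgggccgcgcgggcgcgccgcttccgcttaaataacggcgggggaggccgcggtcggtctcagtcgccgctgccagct
TMSB10, chr2:84905506-84905675, plus strand: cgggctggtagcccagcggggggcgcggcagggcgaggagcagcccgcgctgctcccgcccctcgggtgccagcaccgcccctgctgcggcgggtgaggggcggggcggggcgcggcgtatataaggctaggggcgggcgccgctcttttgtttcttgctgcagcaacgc
UBB, chr17:16381140-16381309, plus strand: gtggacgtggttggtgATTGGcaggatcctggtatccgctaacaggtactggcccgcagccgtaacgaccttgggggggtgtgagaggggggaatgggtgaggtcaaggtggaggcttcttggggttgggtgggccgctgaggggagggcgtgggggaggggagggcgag
RPL29, chr3:51995876-51996045, minus strand: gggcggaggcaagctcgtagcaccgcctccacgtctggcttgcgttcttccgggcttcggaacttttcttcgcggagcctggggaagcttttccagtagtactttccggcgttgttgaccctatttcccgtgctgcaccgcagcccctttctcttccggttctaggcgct
These lines show where the RNAs begin and hold only 20 bases of each RNA. The bases under the peaks were not read, because no genome of the peaks' build, hg19, was used here. CCAAT was found in the ACTG1 window and ATTGG in those of MRPS15 and UBB, while the whole windows of the other 5 genes held neither. The RPL29 start is a C followed by 4 or more pyrimidines, the form known from mRNAs of the translation machinery.

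After-start peaks were crowded close to the start. Of the promoter-class peaks with a coding transcript, 73.9% lay after the start in replicate 1 (2563 of 3470, 95% Wilson interval 72.4% to 75.3%) and 76.7% in replicate 2 (2255 of 2940, 75.1% to 78.2%). The remaining 907 and 685 lay before it. The median distance from the start to the peak's middle was 381 bp in replicate 1, with quartiles of 181 and 994 bp, and 370 bp in replicate 2, with quartiles of 181 and 1028.5 bp. The busiest stretch of 100 bp ran from 100 to 199 bp after the start and held 530 peaks in replicate 1 and 466 in replicate 2. The busiest stretch before the start, the 100 bp next to it, held 85 and 83. The rule set the border at the start, so the split itself is a description. At that border, peaks 0 to 99 bp after the start numbered 203 and 166 and had a median fold of 10.8 and 25.8, and peaks 1 to 100 bp before it numbered 85 and 83 with medians of 10.9 and 27.1.

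**Figure D1:**
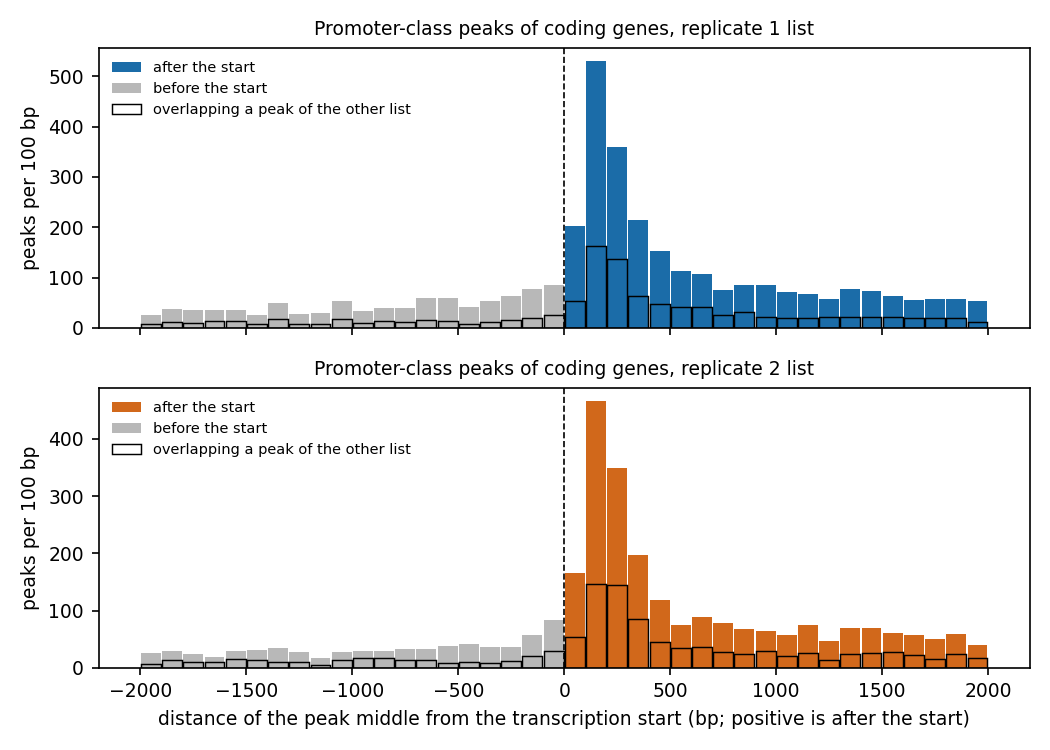
Number of promoter-class peaks of coding genes per 100 bp (y axis) by the distance of the peak's middle from the transcription start in bp (x axis), with the replicate 1 list above and the replicate 2 list below. Coloured bars are after-start peaks, grey bars are before-start peaks and black outlines count the peaks that overlap the other list; the tallest bars, 530 and 466 peaks, stand 100 to 199 bp after the start.

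Many of the peaks nearest to the start reached across it. In replicate 1, 829 after-start peaks (32.3%) held bases before the annotated start, with a median of 59 bp there, and in replicate 2 it was 674 peaks (29.9%) with a median of 56 bp. The deposited summit of these straddling peaks still lay at or after the start in 796 of 829 (96.0%) and 653 of 674 (96.9%). Over all after-start peaks the summit was within 1 bp of the middle in 54.7% and 55.5%. The median length was 367 and 357 bp. Both strands were used about equally, with 1329 and 1189 peaks on plus-strand genes and 1234 and 1066 on minus-strand genes.

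Farther from the start the peaks thinned out, while reads and lengths were lowest next to it. In the nearest class, under 250 bp after the start, there were 384 and 331 peaks per 100 bp, and from 1500 to 2000 bp there were 57.5 and 53.5. The median fold was 10.1 and 26.1 in that nearest class and 8.95 and 25.2 in the farthest. The median number of reads was lowest in the nearest class of both lists, at 38 and 14.5, and highest at 64.5 from 1500 to 2000 bp in replicate 1 and at 22 in the next class, from 250 to under 500 bp, in replicate 2. The median length was 309 and 304.5 bp in the nearest class and 510 and 488 bp in the next. The share also found in the other list had no steady trend with distance, ranging over the 5 classes from 29.9% to 34.7% in replicate 1 and from 34.3% to 40.9% in replicate 2. At the far border, set by the class at 2000 bp, 54 and 40 members lay at 1900 to 2000 bp, while 9 and 19 exon peaks and 15 and 17 intron peaks lay in the next 100 bp.

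Within its own list an after-start peak had a middling number of reads and a fold close to that of the other classes. Fold, score and false discovery rate were taken as the authors deposited them for each peak, and fold is IP over input on their caller's scale. After-start peaks held a median of 48 reads in replicate 1 (quartiles 23 and 144, lowest 11, highest 62469) and 17 in replicate 2 (9 and 43, lowest 6, highest 19625). Before-start peaks held 49 and 16, exon peaks 59 and 21, and intron peaks 22 and 10. The median fold of after-start peaks was 9.43 and 25.3, against 9.42 and 25.3 for before-start peaks, 8.62 and 21.7 for exon peaks and 10.1 and 25.3 for intron peaks. The lists differ in depth and scale, so a fold is read only within its list. In replicate 2, 212 after-start peaks (9.40%) carried the same fold of 25.31, and their median was 6 reads. The authors' false discovery rate also differed between the lists: its median over after-start peaks was 18.3% in replicate 1 and 100% in replicate 2, where 1304 peaks (57.8%) stood at 100%. Its lowest value over after-start peaks was 15.79% in replicate 1 and 28.3% in replicate 2.

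The share of after-start peaks found in both lists lay near the share over all peaks. Sharing meant an overlap of at least 1 bp with any peak in the opposite list. In replicate 1, 823 of 2563 after-start peaks were shared (32.1%, 95% Wilson interval 30.3% to 33.9%), and 31.6% of all peaks of that list were. In replicate 2, 845 of 2255 were shared (37.5%, 35.5% to 39.5%), and 34.7% of all peaks of that list were. These intervals cover counting error only. The partner in the other list was itself an after-start peak for 786 of the 823 (95.5%) and 792 of the 845 (93.7%), and 26 and 29 had only a before-start partner.

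Compared with the classes around it, the after-start class was shared less often than exon peaks and more often than intron peaks in both lists. Each difference was tested with a two-sided Fisher's exact test, and p-values were adjusted over 6 tests by Benjamini-Hochberg. Peaks of a gene depend on each other and no test per gene was made. Both lists count the same overlaps, each from its own side, so agreement between them is not a second independent test. Against exon peaks, of which 38.2% and 43.9% were shared, the odds ratio of the exact test was 0.764 in replicate 1 (adjusted p = 2.54e-08) and 0.767 in replicate 2 (adjusted p = 8.70e-08). Against intron peaks, of which 19.6% and 17.3% were shared, the odds ratio of the exact test was 1.94 (adjusted p = 1.13e-30) and 2.86 (adjusted p = 2.50e-76). With only peaks of 20 reads or more these differences missed the threshold in 1 list each: the odds ratio of the exact test against exon peaks was 0.937 in replicate 2 (adjusted p = 0.429), and against intron peaks 1.11 in replicate 1 (adjusted p = 0.168). With only scores of 200 or more none passed, with odds ratios of 1.00 and 1.65 against exon peaks and of 1.18 and 0.982 against intron peaks. Against before-start peaks the lists differed: 32.1% against 28.0% in replicate 1, an odds ratio of 1.22 by the exact test (adjusted p = 0.0260), and 37.5% against 38.1% in replicate 2, an odds ratio of 0.974 (adjusted p = 0.787). The replicate 1 difference from before-start peaks was also lost with only peaks of 20 reads or more (odds ratio 0.930 by the exact test, adjusted p = 0.464). With only after-start peaks wholly after the start the odds ratio was 0.983. That limit dropped straddling after-start peaks from both lists. Peaks that overlapped only these then counted as unshared, which by itself can lower the ratio.

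Depth moved with all of these shares. Among after-start peaks sorted into 4 classes by the quartiles of read count over all coding-gene peaks of the list, the share found in both lists was 7.10%, 18.2%, 38.2% and 63.7% from the lowest to the highest class in replicate 1, and 11.9%, 20.8%, 39.4% and 72.0% in replicate 2. Pooled over finer classes of read count (Mantel-Haenszel, added with the data in view), the odds ratio against exon peaks was 0.861 in replicate 1 (95% interval 0.777 to 0.955) and 0.875 in replicate 2 (0.786 to 0.974). Against intron peaks it was 1.15 (1.01 to 1.31) and 1.80 (1.58 to 2.06), nearer to 1 than the unadjusted ratio in both lists. Against before-start peaks it was 1.41 (1.16 to 1.71) in replicate 1 and 1.01 (0.820 to 1.25) in replicate 2. In the lowest read class after-start peaks were shared at 7.10% and 11.9%, below exon peaks at 13.3% and 18.7%. Before-start peaks of that class were shared at 4.00% and 4.72%, and intron peaks at 2.51% and 1.69%. In the 2 upper classes the lists differed: after-start peaks were shared at 38.2% and 63.7% in replicate 1, against 41.0% and 65.9% of intron peaks, and at 39.4% and 72.0% in replicate 2, against 31.1% and 68.0% of intron peaks.

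**Figure D2:**
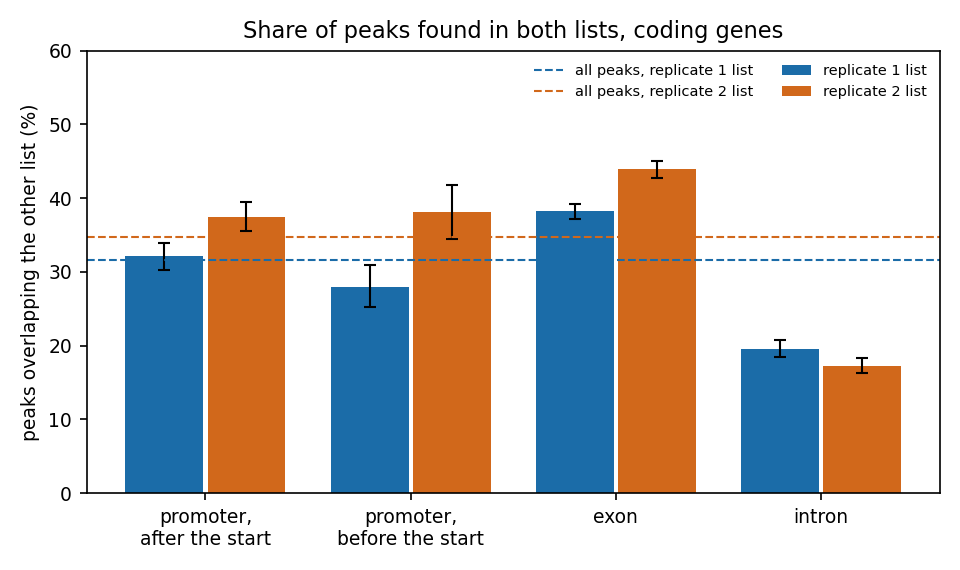
Share of peaks that overlap a peak of the other list (y axis, percent) for after-start promoter, before-start promoter, exon and intron peaks of coding genes (x axis), with the replicate 1 list in blue and the replicate 2 list in orange. Error bars are 95% Wilson intervals and dashed lines mark all peaks of each list, 31.6% and 34.7%; after-start bars stand at 32.1% and 37.5%, below the exon bars and above the intron bars.

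Shared after-start peaks were broader and held more reads than unshared ones, and their fold was not higher. Shared peaks held a median of 137 reads in replicate 1 and 38 in replicate 2, against 33 and 12 for unshared peaks. Their median length was 540 and 532 bp, against 311.5 and 300 bp. Their median fold was 8.19 and 20.3, against 10.1 and 25.3. The 2 lists gave 791 pairs of overlapping after-start peaks that name the same gene, over 753 symbols. The middles of paired peaks lay a median of 48 bp apart, and 532 pairs (67.3%) were within 100 bp. As a description across pairs, whose read counts share gene length and abundance, the rank correlation between replicates was 0.859 for reads, 0.823 for reads per length and 0.311 for fold. The deposited fold was the larger number in replicate 2 in 720 pairs (91.0%), so a ranking by the smaller fold is mostly one by replicate 1. Of the pairs, 560 held 20 reads or more in both lists.

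**Figure D3:**
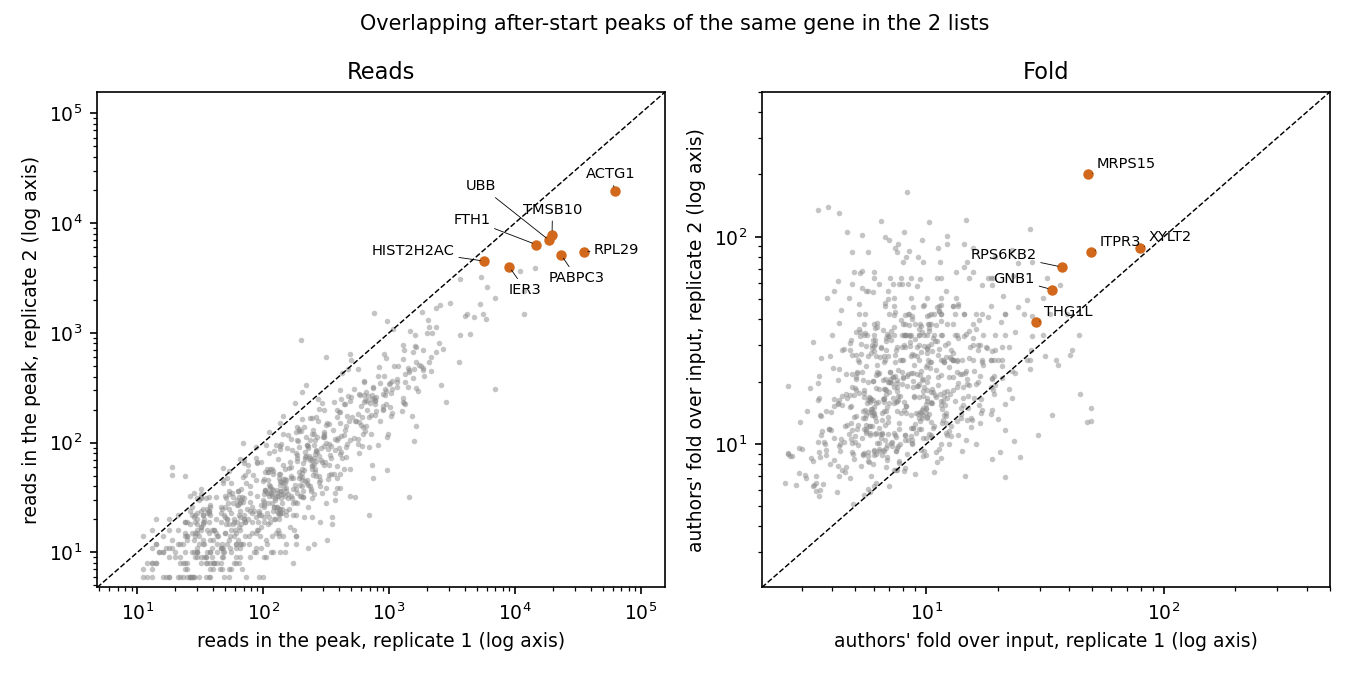
The 791 pairs of overlapping after-start peaks, with the replicate 1 value on the x axis and the replicate 2 value on the y axis, both on log axes: reads in the peak on the left and the authors' fold over input on the right. Orange points are the 8 genes with the most reads and the 6 with the highest fold by the smaller of the 2 values, and the dashed line marks equal values; reads follow a narrow band (rank correlation 0.859) and fold a wide cloud (0.311).

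The genes ranked by the smaller of their 2 folds were mostly held by narrow peaks close to the start. XYLT2, a xylosyltransferase that starts glycosaminoglycan chains on proteoglycans, had a fold of 79.7 in replicate 1 (111 reads, chr17:48423433-48423725 on hg19) and 88.59 in replicate 2 (21 reads, chr17:48423419-48423704). Both peaks centred 187 and 169 bp after the start and covered 1.9% of the transcript's span. ITPR3, a receptor that releases calcium from the endoplasmic reticulum, had 49.54 (76 reads) and 84.37 (20 reads) at chr6:33589056-33589506 and chr6:33589213-33589504. MRPS15, a protein of the small mitochondrial ribosomal subunit, had 48.08 (135 reads, chr1:36929683-36929990) and 200 (52 reads, chr1:36929663-36930051). In these 3 genes both lists gave a high fold, and the replicate 2 peaks held at most 52 reads. Their deposited false discovery rates, in the same order, were 18.07%, 17.82% and 17.8% in replicate 1. In replicate 2 they were 56.75%, 58.35% and 28.92%.

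RPS6KB2, an S6 kinase of the mTOR pathway, had a fold of 37.34 in replicate 1 and 71.43 in replicate 2, with 52 and 20 reads centred 85 and 89 bp after the start. GNB1, a G protein beta subunit, had 33.83 and 55.65 with 246 and 70 reads, 204 and 214 bp after the start of a transcript spanning 105834 bp. THG1L, which adds the guanylate at the 5′ end of histidine tRNA, had 28.91 and 38.61 with 50 and 26 reads. The replicate 2 false discovery rate was 88.63% for RPS6KB2, 29.01% for GNB1 and 76.98% for THG1L. In these 3 genes both peaks lay within the region where the class is densest, and each covered 3.7% or less of the transcript's span.

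EIF2D, a translation initiation factor, lay farther in, at 1289 and 1302 bp, with a fold of 41.28 in replicate 1 and 28.33 in replicate 2. POLD1, the catalytic subunit of DNA polymerase delta, had 27.28 and 109.69 at 110 and 86 bp. TNPO2, a nuclear import receptor, had 31.59 and 26.67 at 636 and 920 bp. CLASRP, a splicing regulator, had 24.41 and 75, and SLC25A37, the mitochondrial iron importer mitoferrin, had 24.3 and 45.6. EIF2D and TNPO2 were ranked by their replicate 2 fold and the other genes of this group by that of replicate 1. FTH1, the heavy chain of the iron store ferritin, was the only gene of the group that also ranked among the highest by reads, with a fold of 27.79 and 33.28 and with 14854 and 6349 reads. The replicate 2 false discovery rate was 42.23% for POLD1, 60.78% for FTH1 and 75.92% for EIF2D. It was 100% for TNPO2, CLASRP and SLC25A37.

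Some of the highest single-list folds had no partner. IRX3, a homeobox factor, had the highest fold in replicate 2, 227.81 with 64 reads, and its peak was not shared. In replicate 1 the highest folds after that of XYLT2 were those of BTN2A2, 63.18 with 102 reads, and GPR108, 59.19 with 207 reads, which were not shared either. These 3 genes were singled out after their values were seen.

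The genes with the most reads were short, and in 6 of the 8 both peaks covered 72.1% or more of the transcript, with RPL29 and FTH1 below 50%. ACTG1, cytoplasmic gamma-actin, held 62469 reads in replicate 1 (chr17:79476911-79479868) and 19625 in replicate 2 (chr17:79476911-79479878), with a fold of 11.72 and 13.05. Both peaks covered over 99% of its transcript, 99.2% and 99.5%, so the middle fell 1503 and 1498 bp after the start. TMSB10, an actin-sequestering thymosin, held 19747 and 7847 reads with a fold of 10.62 and 18.42 over 86.5% and 91.1% of its span. UBB, a polyubiquitin gene, held 18837 and 6937 reads with 10.52 and 15.81. The peaks of ACTG1 and TMSB10 and the replicate 1 peak of UBB did not reach the annotated start, which the replicate 2 peak of UBB held.

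RPL29, of the large ribosomal subunit, held 35234 reads in replicate 1 and 5485 in replicate 2, with a fold of 14.87 and 19.48 and peaks that ran past the annotated transcript end. Its replicate 2 peak had a score of 3195.06 and a false discovery rate of 100% at once. PABPC3 held 23293 and 5145 reads with a fold of 5.42 and 14.36. It is an intronless copy of PABPC1, the cytoplasmic poly(A)-binding protein, so its reads are uncertain. HIST2H2AC, a histone H2A gene, held 5728 and 4500 reads with 11.21 and 21.01, in peaks far longer than its span of 438 bp. IER3, a rapidly induced stress response gene, held 8996 and 4002 reads with 5.02 and 10.26. Reads of ACTG1, UBB, FTH1, RPL29 and the histones can likewise be split with near-identical copies, and the sources used here do not say how the authors treated reads with several matches.

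Reads and sharing went with the span of the transcript. Span did not fully separate the 2 rankings, since FTH1, spanning 3377 bp, was in both. Transcripts under 5000 bp from start to end carried 430 after-start peaks in replicate 1 (16.8%) and 326 in replicate 2 (14.5%), and these held 61.4% and 63.9% of all reads in after-start peaks. The share found in both lists was 48.5% and 69.7% for spans under 2000 bp and 28.6% and 29.7% for spans of 100000 bp or more. The median number of reads was 310.5 and 216 in the shortest class and 36 and 14 in the longest, while the median fold was 7.59 and 16.9 in the shortest and 10.1 and 29.1 in the longest. Peaks that covered 80% or more of the transcript were few, 80 (3.12%) and 57 (2.53%), and held 34.9% and 38.8% of the reads. Without the transcripts under 5000 bp, 29.9% and 33.6% of after-start peaks were shared.

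**Figure D4:**
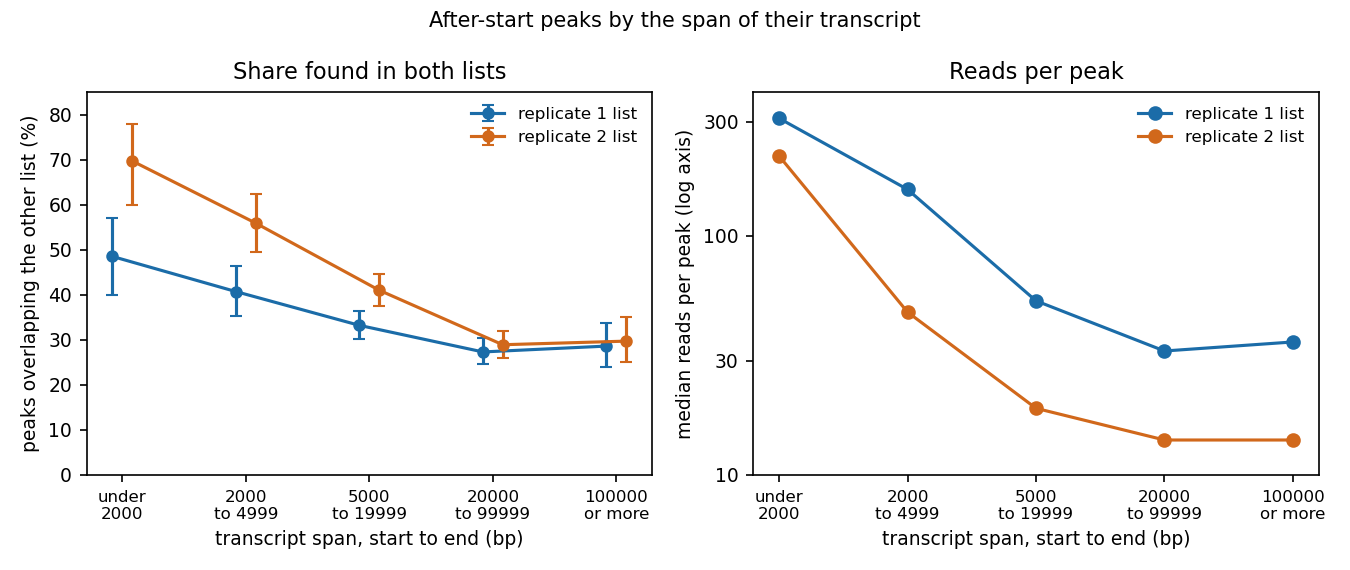
After-start peaks by the span of their transcript from start to end in bp (x axis), with the share that overlaps the other list in percent and its 95% Wilson interval on the left and the median reads per peak on a log axis on the right. Blue is the replicate 1 list and orange the replicate 2 list; the share falls from 48.5% and 69.7% in the shortest class to 28.6% and 29.7% in the longest.

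At the level of genes, after-start peaks named 2383 coding genes in replicate 1 and 2102 in replicate 2, and 883 in both. For 748 of them the peaks of the 2 lists overlapped, which is 3.84% of 19458 coding genes. The 883 were 37.1% of the replicate 1 genes and 42.0% of the replicate 2 genes. These are bulk libraries, so more cells with a bound RNA and more bound RNA per cell cannot be told apart. Counted by the peaks of replicate 1, most genes had a single shared peak, 726 symbols, and 27 had 2. A replicate 1 peak that met 2 peaks of replicate 2, as in TPT1, counts once there. Ranked by the smaller of the 2 replicates' folds, the leading genes with 2 were CLPP, a mitochondrial protease, TBKBP1, an adaptor of the kinase TBK1, SIK1, a salt-inducible kinase, and FOXQ1, a forkhead factor. For TBKBP1 the peaks lay 803 and 900 bp after the start, with a fold of 28 in replicate 1 and 75.94 in replicate 2, and at 1698 and 1523 bp, with 19.18 and 63.28. For CLPP both replicate 1 peaks, with folds of 36.62 and 17.23, met the same replicate 2 peak, which had a fold of 58.33.

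Of the 748 genes, 76 (10.2%) also held a shared intron peak, for which the share over all coding genes was not counted. A shared exon peak, which lies beyond 2000 bp of the start, was held by 224 (29.9%). Among 214 genes with a shared before-start peak 32 (15.0%) held a shared exon peak, and among all coding genes 1836 (9.44%) did. A short transcript has little room for such an exon peak, and of 589 genes whose paired transcript spans 5000 bp or more, 220 (37.4%) held one. Within the 224 genes the start and the exons had similar folds. The after-start peak had the higher fold in 98 genes (43.8%) in replicate 1 and in 125 (55.8%) in replicate 2, with medians of 8.27 and 23.5 for after-start peaks and 9.02 and 17.7 for exon peaks. The lists thus leaned in opposite directions.

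Neighbouring genes share some of these positions. In 10.5% of after-start peaks of replicate 1 and 11% of those of replicate 2, a coding gene on the other strand started within 2000 bp in the divergent direction, and the source of reads before a start cannot be told there without strand. Such peaks were shared at 30.4% and 32.9%, against 32.3% and 38.0% for the others. A small nucleolar, small Cajal body or microRNA gene was also annotated for 66 (2.58%) and 60 (2.66%) after-start peaks, which were shared at 60.6% and 66.7% and held a median of 148.5 and 39 reads. Neither kind of neighbour was counted over all peaks or over the other classes. Whether these shares are particular to after-start peaks was not tested.

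Gene groups of the translation machinery and of messenger ribonucleoproteins, and the histones, stood above the share over all coding genes. The lists were written with earlier results of these data known and are described by counts without a test. The share over all coding genes includes genes without a peak in either list, and the part played by expression level was not tested. Of 39 translation factor genes 9 (23.1%) had a shared after-start peak, against 3.84% of coding genes. TPT1, translationally controlled tumour protein, led with a fold of 19.5 in replicate 1 and 28.45 in replicate 2 (6953 and 2068 reads). EIF4G1, the initiation scaffold, had 14.19 and 21.88, and EEF2, the elongation factor that drives translocation, had 10.89 and 17.26. Of 79 cytosolic ribosomal protein genes 15 (19.0%) were shared, led by RPL13 with 16.79 and 30, RPL29 (above) and RPS4X with 15.48 and 13.4. The median of the smaller fold was 5.90 for the translation factors and 7.42 for the ribosomal proteins, below the 8.15 over all 748 genes. As listed, both groups thus had a high share and a modest fold. The translation factor list left out EIF2D (above), whose smaller fold is above that of TPT1, and EIF2B2, with 12.2 and 11.11. Both had a shared after-start peak, so the count, the leading gene and the median hold for the list as written.

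Of 32 messenger ribonucleoprotein genes 7 (21.9%) had a shared after-start peak, among them YBX1 and its relatives YBX3 and YBX2. HNRNPD, a binder of AU-rich elements, had a fold of 12.14 in replicate 1 and 26.25 in replicate 2 with 37 and 32 reads. YBX1 had 11.25 and 26.98 with 1740 and 505 reads, centred 407 and 306 bp after the start, and YBX3 had 9.58 and 14.58 with 660 and 143 reads. The gene of the precipitated protein itself was thus among the shared members. Of 70 replication-dependent histone genes 13 (18.6%) were shared, led by HIST1H2AI with 12.41 and 23.47, HIST1H2AG with 12.02 and 15.43, and HIST2H2AC (above). The peaks of these 3 histone genes covered 100% of the transcript in both lists.

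Groups tied to the tumour cell were also above the share over all coding genes, as were the glycolysis and proteasome groups below. Of 39 Wnt and TGF-beta pathway genes 7 (17.9%) were shared, and the single lists named 30.8% in replicate 1 and 38.5% in replicate 2. LRP5, a Wnt co-receptor, had a fold of 15.08 in replicate 1 and 35.29 in replicate 2 with 21 and 12 reads, 68 and 54 bp after the start. BCL9L, a coactivator of beta-catenin, had 13.81 and 21.76 with 114 and 39 reads, and FZD2, an intronless Wnt receptor gene, had 11.65 and 14.71 with 2568 and 338 reads over its whole length. Of 32 genes mutated in pancreatic cancer 5 (15.6%) were shared, and 4 of them are described. At scores of 50 or more 2 of the 5 stayed shared. The single lists named 25.0% of the 32 in replicate 1 and 21.9% in replicate 2, against 12.2% and 10.8% of coding genes. ARID1B, a chromatin remodelling subunit, had 10.16 and 25.31 with 42 and 15 reads. STK11, a kinase that activates AMPK, had 8.03 and 16 with 598 and 144 reads. KDM6A, a histone demethylase, had 6.69 and 25.31 with 54 and 6 reads, and TGFBR2, a TGF-beta receptor, had 4.86 and 84.37 with 123 and 20 reads. KDM6A's replicate 2 peak held 6 reads, the lowest number in that list.

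Of 28 keratin and epithelial adhesion genes 4 (14.3%) were shared: KRT80 with a fold of 17.24 in replicate 1 and 25.54 in replicate 2, KRT8 with 10.51 and 10.77, the mesenchymal filament VIM with 7.85 and 14.11, and the integrin ITGA3 with 7.6 and 22.86. KRT8 and VIM held 3664 and 14420 reads in replicate 1. Of 20 glycolysis genes 3 (15.0%) were shared, namely ALDOA with 10.07 and 13.48, GPI with 6.57 and 9.34 and TPI1 with 5.7 and 6.08. Of 32 chaperone and heat shock genes 4 (12.5%) were shared, CALR with 10.72 and 17.85, HSPB1 with 6.17 and 18.55, and the near-identical pair HSPA1B, with 5.41 and 8.9, and HSPA1A, with 3.34 and 8.24, whose reads cannot be assigned with certainty. Of 32 proteasome genes 4 (12.5%) were shared, PSMD2 with 15.65 and 13, PSMB2 with 10.47 and 11.01, PSMD8 with 4.39 and 44.34 and PSMB4 with 3.88 and 11.78. Of 32 immediate early genes only DUSP1, with 9.17 and 19.02, and IER3 were shared (6.25%).

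By shared peaks, markers of other cell types lay close to the background or at 0. None of 398 olfactory receptor genes was named by an after-start peak of either list, and none of 24 immune cell marker genes was shared, although replicate 2 named 2 of them. Of 24 fibroblast markers, the cells whose vesicles were given, 1 (4.17%) was shared, COL5A1, with a fold of 15.26 in replicate 1 and 29.53 in replicate 2 on 48 and 9 reads. The single lists named 5 of them (20.8%) in replicate 1, against 12.2% of coding genes, and 3 (12.5%) in replicate 2, against 10.8%. Neuronal markers had TUBB3, a tubulin with 18.67 and 18.75 on 26 and 6 reads, and exocrine pancreas markers had the trypsinogen PRSS3, with 11.49 and 25.31 on 16 and 6 reads. These 3 genes each rested on fewer than 10 reads in replicate 2.

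**Figure D5:**
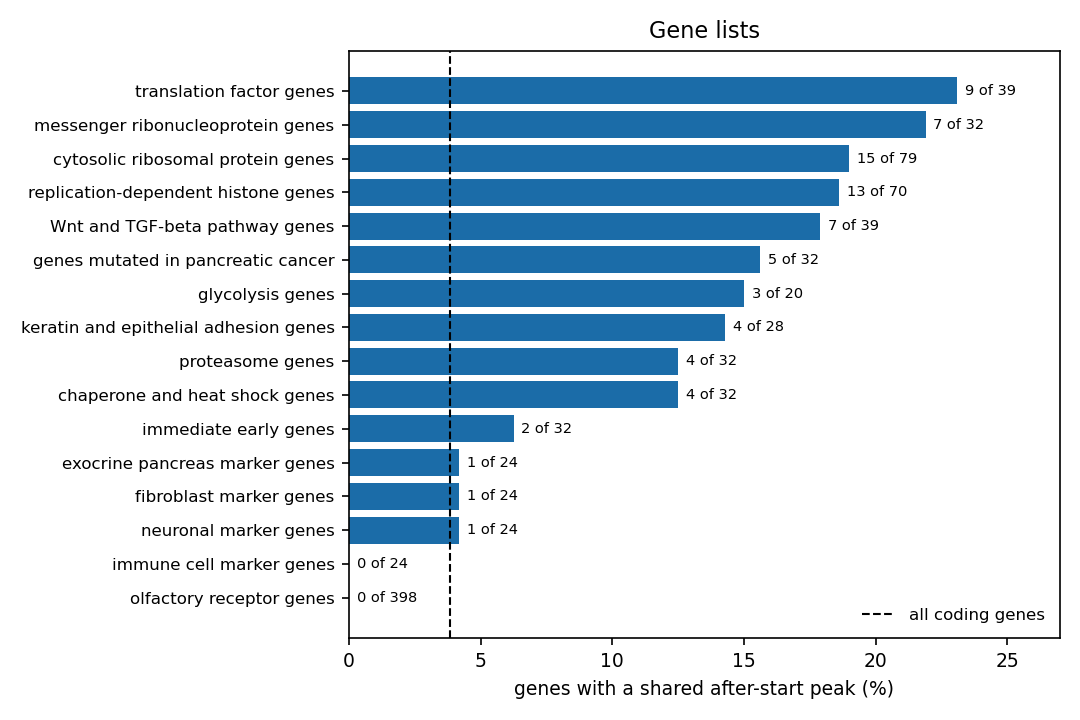
Percent of the genes of each of 16 lists (y axis) that had a shared after-start peak (x axis), with the counts written beside the bars. The dashed line marks all coding genes, 3.84%; translation factor genes reach 23.1%, and olfactory receptor and immune cell marker genes stand at 0.

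The RefSeq start windows, 250 bases before to 50 after a start, were matched by symbol for 607 of the 748 genes (913 windows) and for 15516 of 19458 coding genes (21831 windows). Windows of the 748 genes were somewhat richer in G and C, with a median of 65.3% against 62.3%, and held a median of 25 CpG dinucleotides against 21. CCAAT on either strand was in 37.0% of them and in 34.8% of all windows. TATAAA within 50 bases before the start, searched on the gene's strand, was in 3.18% and 3.27%. After the start CATC was in 8.43% against 9.87% and CACC in 13.8% against 16.5%, within only 50 bases of each RNA. A start with C and 4 more pyrimidines was in 6.35% against 4.58%. Among the ribosomal protein genes it was in 4 of 14 windows of genes with a shared after-start peak (28.6%) and in 43 of 64 windows of those without (67.2%). Windows were at hand for only 9 of the 15 genes with such a peak and for 54 of the 64 without. These shares are descriptions over windows, several of which can belong to 1 gene, and a match is not a bound site.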

How the data were processed

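The submitters' processing notes name cutadapt 1.9.1, Bowtie2 2.2.4 and build hg19, and the caller is not named in the sources used here. Per the labels' protocols, RNA was crosslinked, digested and precipitated, libraries were made with a kit for DNA, and no strand is stated. The 2 deposited peak lists hold 1 row per peak and transcript. Per the file headers, the read count of a peak is its tags, not scaled to depth. The fold enrichment was deposited as the authors' caller scaled it over input. The significance score, per the file headers, is 10 times minus log10 of a p-value. The false discovery rate in percent was also deposited by the authors.

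Rows were collapsed to unique positions with Python 3.11.15 and pandas 2.3.3. Of several coding transcripts the nearest start decided side and gene, and in 3 peaks 2 starts of opposite sign tied and counted as after. The distance runs to the peak's middle. Overlap was taken at 1 bp or more. Wilson intervals and Fisher's exact tests came from scipy 1.17.1, and the Benjamini-Hochberg adjustment and Mantel-Haenszel pooling from statsmodels 0.14.6. The overlap search and the exact tests were tested on simulated data, the other steps were not. Of 3612 member symbols 3596 matched a current coding or other RefSeq gene by accession, 14 by symbol, and the coding background was 19458 genes. Members, comparisons and gene lists were chosen with earlier results of these data known. Named genes are the 12 highest by the smaller fold with 20 reads or more in both lists, the 8 highest by reads, the 4 with most shared peaks, up to 3 per gene list, and each gene of a list count of 5 or fewer. Alternatives varied overlap, score, reads, fold, side, partner and list. Limits on transcript span and the pooling over read classes were added with the data in view. Genes withheld from this report that the rule would name are not reported here.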

Additional observations from a re-analysis of the deposited data

How the results depend on the processing

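No paired analysis was possible because each deposited list already sets 1 IP against the input of the same number and no test across samples was made. The share of after-start peaks found in both lists, 32.1% in replicate 1 and 37.5% in replicate 2, was 26.9% and 30.4% at 50% overlap of both peaks, 21.3% and 48.1% at scores of 50 or more, 7.52% and 84.1% at 200 or more, 28.3% and 58.0% at 20 reads or more, 25.0% and 28.2% for peaks wholly after the start, and 29.9% and 33.6% for spans of 5000 bp or more. In replicate 2 it was 35.0% at a fold of 4 or more and 35.1% where the partner had to be an after-start peak. The lists start at different scores and depths, so a common limit on score or reads removes more of replicate 2. The limit on fold left all 2255 after-start peaks of replicate 2 and 2454 of 2563 in replicate 1. The limit to peaks wholly after the start also removed straddling after-start peaks as partners, which by itself can lower the share.

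The odds ratio against before-start peaks in replicate 1, 1.22, was 1.19 at 50% overlap (adjusted p = 0.0634, Fisher's exact test as for all p here), 1.04 at scores of 50 (adjusted p = 0.705), 0.769 at 200, 0.930 at 20 reads and 0.983 for peaks wholly after the start. In replicate 2, 0.974, it was 0.711 at scores of 50 (exact adjusted p = 0.0111), 0.684 at 20 reads (adjusted p = 0.0190), 0.743 for peaks wholly after the start (adjusted p = 0.00332), 1.01 for spans of 5000 bp or more and 1.01 pooled over read classes. Against exon peaks it was 1.00 and 1.65 at scores of 200 and, in replicate 2, 0.937 at 20 reads (exact adjusted p = 0.429). Against intron peaks it was 1.18 and 0.982 at scores of 200 and, in replicate 1, 1.11 at 20 reads (exact adjusted p = 0.168). At scores of 200 only 132 members were left in replicate 2. For peaks wholly after the start, straddling after-start partners were removed from both lists, so these ratios can be set in part by that removal. The causes of these moves were not tested.

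The 748 genes became 495 at scores of 50, 95 at 200 and 401 for peaks wholly after the start, all within the 748, and a single list gave 2102 to 2383. The 75 list genes became 128 to 141 in a single list. Shared peaks had a median fold of 8.19 and 20.3 with 137 and 38.0 reads, and at scores of 50 the replicate 2 medians were a fold of 29.5 and 29.0 reads.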
